A study of Mus musculus with 4 samples.

Results

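The lactic acid bacteria of mouse stool were followed here as every row of the deposited composition table whose family is Lactobacillaceae, Enterococcaceae or Streptococcaceae. These are 12 of the 488 rows of the table and sum to 7 of its 318 genus-level entries. The Lactobacillaceae are Ligilactobacillus, Lactobacillus and Limosilactobacillus. The Streptococcaceae are Streptococcus, Lactococcus_A_346120 and an entry unclassified at genus level, and the Enterococcaceae are a lone entry unclassified at genus level.

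Stool of wild-type C57BL6/J mice aged 8 to 12 weeks was profiled by 16S rRNA gene sequencing of the V4 stretch, at day 0 and at day 4. Mice received vancomycin, ampicillin, neomycin, metronidazole or the mix of these 4 drugs, or PBS (phosphate-buffered saline) alone, by oral gavage or by intraperitoneal or intravenous injection. A dose was 2.5 mg in 100 µl of PBS, given 2 times a day over 3 days, with a last dose on day 4. PBS mice of the same route, given 100 µl of PBS, are the controls in every comparison below.

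After 2 near-identical pairs of libraries were averaged, 89 day 4 samples remained. In the order oral, intraperitoneal and intravenous, PBS had 5, 5 and 6 samples, ampicillin 5, 2 and 4, metronidazole 6, 6 and 6, neomycin 4, 6 and 4, vancomycin 6, 5 and 6, and the mix 4, 3 and 6. Day 0 groups held 6 libraries each, except the oral mix with 5. Recovered depth had a median of 7289 reads at day 0 and 23566 at day 4, and 24 of 107 day 0 libraries and 4 of 91 day 4 libraries held under 1000 reads. All day 0 libraries came from run ok122, and 12 day 4 libraries came from run SB1. Those of SB1 were replicates 4, 5 and 6 of intravenous PBS and of intravenous vancomycin, and replicates 4 and 5 of oral ampicillin. The rest were intraperitoneal ampicillin replicate 2, intraperitoneal mix replicate 3, oral mix replicate 3 and the oral mix replicate 2 of 57476 reads. Intravenous ampicillin and the intravenous mix came from ok122 alone, while their PBS controls came from both runs.

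Lactic acid bacteria are Gram-positive fermenters that turn sugars into lactate, and they live in the forestomach and intestine of mice as well as in fermented food. Ampicillin and vancomycin both block the building of the bacterial cell wall. Vancomycin does so by binding the D-alanyl-D-alanine end of wall precursors, and many lactobacilli, Ligilactobacillus and Limosilactobacillus among them, are known to build precursors that end in D-lactate, whereas members of Lactobacillus in the narrow sense are known as sensitive. Neomycin acts on the ribosome, and metronidazole is activated inside anaerobes. This is background and was not measured here.

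All values are percent of the reads of a library. They are shares and not numbers of bacteria, so a genus can rise because others fell, and bacterial load was not measured. Differences were tested with limma on log2(percent + 0.01), which understates changes of rare genera, and p-values were adjusted by Benjamini-Hochberg over all genera tested. A genus was tested where it had a read in at least 20% of samples. At day 4, 4 of the 7 lactic acid entries passed this filter among 95 tested genera: Ligilactobacillus, Lactobacillus, Limosilactobacillus and Streptococcus.

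Ligilactobacillus, a lactobacillus genus common in the mouse intestine, had the most calls of the 4, being called in 4 of 15 comparisons with PBS, all higher. Over all genera and the same 15 comparisons 28.3% of tests were called, so this share of calls is near the background. It had a read in 53 of 91 day 4 libraries, against 35 of 107 at day 0, where its highest level in a library of 1000 reads or more was 0.140%. Nearly all of it was named at genus level alone. Ligilactobacillus faecis was listed in 1 library, at 0.0139%.

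With oral vancomycin, Ligilactobacillus made up 9.39%, 2.40%, 4.10%, 8.34%, 4.20% and 5.25% of reads in the 6 mice. The 5 oral PBS mice had 0.0332%, 0.0220%, 0.0403%, 0.0884% and 0.0390%. Every vancomycin mouse lay above every PBS mouse. The means were 5.61% ± 2.70 (SD, n = 6) and 0.0446% ± 0.0255 (SD, n = 5), a ratio of 126. The difference was 6.65 on the log2 scale (SE 1.0, limma adjusted p = 8.81e-08), and an exact two-sided permutation test of the same groups gave p = 0.00216. The levels rest on 96 to 1853 Ligilactobacillus reads per vancomycin library. Of the 95 genera tested, 66.3% passed the threshold in this comparison, and 1 of the 4 lactic acid genera did. The median of all 95 genera was -1.96 on the log2 scale in the same comparison. The 7 genera of the reagent, skin and food list together came to at most 0.202% in an oral vancomycin sample.

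With intraperitoneal vancomycin, Ligilactobacillus was found in every sample, at 0.432% (the mean of a near-identical pair), 0.144%, 0.273%, 0.0522% and 0.174%. The intraperitoneal PBS mice had 0%, 0.224%, 0.0181%, 0% and 0.00997%. Of the vancomycin samples, 2 of 5 lay above the highest PBS mouse, so the groups overlap. The means were 0.215% ± 0.145 (SD, n = 5) and 0.0504% ± 0.0973 (SD, n = 5), and the difference was 2.81 (SE 1.05, limma adjusted p = 0.0387). In this comparison 25.3% of all genera were called. The call was lost in the exact permutation test (p = 0.0317, adjusted p = 0.159) and with each mouse set against its own day 0 value (adjusted p = 0.240).

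With intravenous vancomycin, Ligilactobacillus was 0% in 3 mice and 0.0798%, 0.0254% and 0.147% in the others, against 0% in all 6 intravenous PBS mice. The difference of 1.49 (SE 0.954, limma adjusted p = 0.202, 95% interval -0.38 to 3.36) did not pass, and 42.1% of genera were called. On the centred log-ratio scale, which sets each genus against the mean log of all genera in its sample, it passed (2.88, limma adjusted p = 0.0269, with 31.6% of genera called). The intravenous PBS libraries held 8556 to 38424 reads, so a 0 there allows a share of up to 0.00781% to 0.0351%, the limit set by 3 reads. Such limits cover counting error only. The lowest nonzero value was 2 reads in 183 of 198 libraries, so a 0 may also stand for a lone read that is not shown. The limits would then be too low, and the folds set against them too high.

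Intravenous ampicillin gave the next highest mean level of Ligilactobacillus. Its samples had 0.814%, 0%, 0.148% and 2.58%, where the 0.148% is the mean of a near-identical pair. With all 6 PBS mice at 0, 3 of 4 ampicillin samples lay above every control. The mean was 0.886% ± 1.19 (SD, n = 4), at least 55.7-fold higher than the mean limit of 3 reads per PBS library. Without the sample at 2.58% the mean was 0.321% and the bound at least 20.2-fold. The difference was 4.59 (SE 1.07, limma adjusted p = 0.000386). In this comparison 42.1% of genera were called. The exact permutation test gave p = 0.0333 and an adjusted p of 0.0931. Summed reagent genera were at most 0.171% in these samples.

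Oral ampicillin mice held little of it. Ligilactobacillus was at 0.0563%, 0.00700%, 0%, 0% and 0%, and 4 of 5 values lay below the lowest oral PBS mouse. The zeros were in libraries of 6234, 11764 and 23364 reads, where 3 reads would be 0.0481%, 0.0255% and 0.0128%. The limits of 0.0481% and 0.0255% lie above the lowest oral PBS mouse, so those zeros do not place the mice below it. The difference of -1.64 (SE 1.05) did not pass (limma adjusted p = 0.172), while 55.8% of genera were called. With only the groups compared in the fit it was called lower (SE 0.617, limma adjusted p = 0.0410). Beside this, reagent genera made up to 96.6% of an oral ampicillin library. With those genera taken out of the shares the difference was -1.64 (limma adjusted p = 0.225). The 2 intraperitoneal ampicillin mice had 0.108% and 0%, a difference of 0.38 (SE 1.38, limma adjusted p = 0.812), with 50.5% of genera called.

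With the intravenous mix, Ligilactobacillus was at 1.55%, 0.105%, 0.206%, 0.00323%, 0% and 0% in the 6 mice. Levels thus spread widely, and 4 of 6 mice lay above the PBS mice, which were all at 0. The mean of 0.311% ± 0.613 (SD, n = 6) was at least 19.5-fold above the PBS limit, and without the mouse at 1.55% it was 0.0630%, at least 3.96-fold above it. Of the 2 zeros, 1 is a library of 65 reads, where 3 reads would be 4.62%. The difference was 2.61 (SE 0.954, limma adjusted p = 0.0193), with 43.2% of genera called. The call was lost without replicate 1 (1.67, adjusted p = 0.140), without replicate 3 (2.24, adjusted p = 0.0645), in run ok122 alone (adjusted p = 0.0652), with each mouse set against its own day 0 value (1.45, adjusted p = 0.267) and in the exact permutation test (p = 0.0606). The oral mix (0.0917%, 0.0139%, 0% and 0%; difference -1.19, SE 1.11, adjusted p = 0.382) and the intraperitoneal mix (0.796%, 0.00899% and 0%; difference 1.01, SE 1.21, adjusted p = 0.533) did not pass, and 36.8% and 29.5% of genera were called there. The 0% of the intraperitoneal mix is a library of 30 reads, in which 3 reads would be 10%. Reagent genera made up 93.4%, 96.0%, 68.3% and 0.161% of the reads of the oral mix libraries.

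Ligilactobacillus was found in all 6 oral metronidazole mice, at 0.00728% to 0.622% with a median of 0.105%. Of these, 4 lay above and 1 below the range of the oral PBS mice. The difference was 1.11 (SE 1.0, limma adjusted p = 0.791). By the intraperitoneal route it was found in 5 of 6 mice (median 0.0554%), and by the intravenous route in 2 of 6, at up to 0.0122%. No lactic acid genus was called with metronidazole, where 4.21%, 2.11% and 2.11% of all genera were called by the oral, intraperitoneal and intravenous routes.

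Ligilactobacillus had no read in the 4 oral and the 6 intraperitoneal neomycin mice, 1 of which had a library of only 70 reads. In the oral group the limits of 3 reads were 0.00367% to 0.0103%, below the lowest oral PBS mouse at 0.0220%, so these groups do not overlap. The limma difference of -2.34 (SE 1.11) did not pass (adjusted p = 0.0991), whereas the exact permutation test gave p = 0.00794 (adjusted p = 0.0419). The limma spread is shared over groups, while the SDs within these groups were 0 and 0.59 on the log2 scale. With only the groups compared in the fit, Ligilactobacillus was called lower with oral neomycin (SE 0.453, limma adjusted p = 0.00657). A pseudocount of 0.001 also gave a lower call (-5.36, SE 1.78, limma adjusted p = 0.0206). Of the 95 genera, 23.2% were called with oral neomycin. The intraperitoneal difference was -1.41 (SE 1.0, limma adjusted p = 0.775), with 0% of genera called, and here 2 of 5 PBS mice were also at 0. Intravenous neomycin (2 of 4 mice with a read, up to 0.0171%) gave 0.52 (SE 1.07, adjusted p = 0.959), with 1.05% of genera called.

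**Figure D1:**
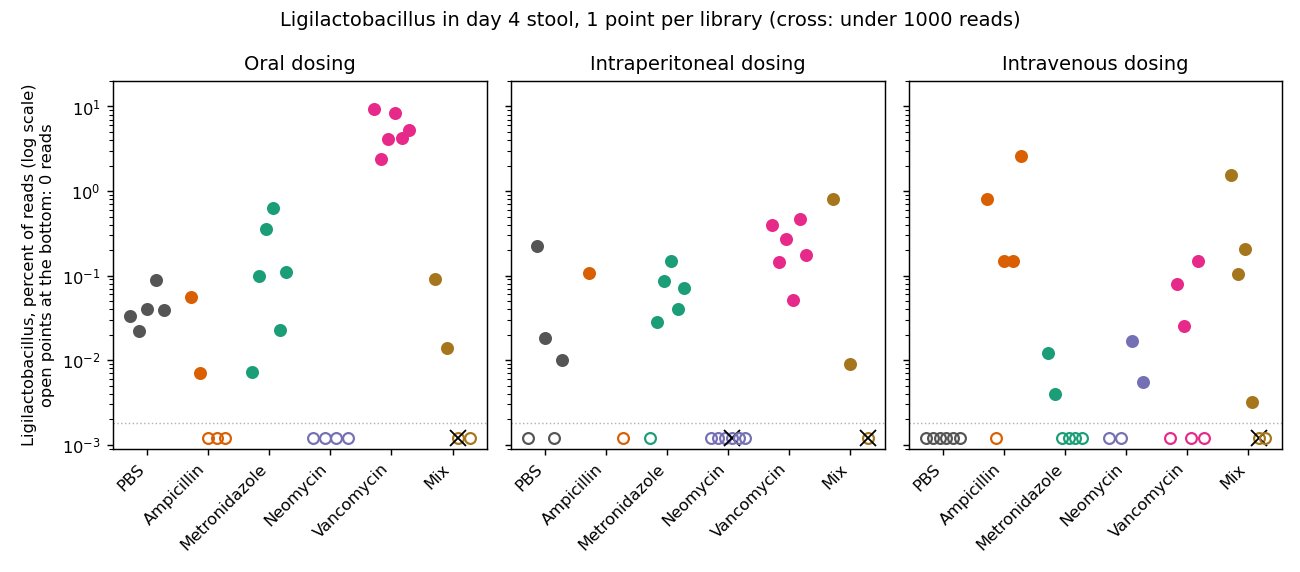
Percent of reads of Ligilactobacillus on a log axis in each day 4 library, by antibiotic and route; open points at the bottom had 0 reads, and crosses mark libraries under 1000 reads. The 6 oral vancomycin libraries sit between 2.40% and 9.39%, and the highest point outside this group is 2.58% with intravenous ampicillin.

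Ranked by mean log2(percent + 0.01), oral vancomycin stood first of the 18 day 4 groups (2.35), followed by intravenous ampicillin (-2.05), intraperitoneal vancomycin (-2.43), oral metronidazole (-3.19) and the intravenous mix (-4.03). The gap between the first and the second group was 1.26 times the larger of their SDs. All later neighbours in the order differed by less than the larger of their SDs. The last places were shared by intravenous PBS, oral neomycin and intraperitoneal neomycin, all without a read.

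The 5 tested genera whose 18 group means were most like those of Ligilactobacillus were Escherichia_710834 (Spearman rho 0.41), Parasutterella (0.39), Mucispirillum (0.37), Limosilactobacillus (0.28) and Desulfovibrio_R_446353 (0.27). These likenesses are low, and the values share libraries and depth. Escherichia_710834, a genus of Gram-negative facultative anaerobes, was at 49.0% ± 15.2 (SD, n = 6) with oral vancomycin and at 0.0838% ± 0.144 (SD, n = 5) with oral PBS.

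The Ligilactobacillus difference from PBS differed between routes for 2 antibiotics. The ampicillin difference from PBS was lower by the oral than by the intravenous route (oral minus intravenous -6.23, SE 1.49, limma interaction adjusted p = 0.00683), in a contrast where 7.37% of genera were called. The vancomycin difference was higher by the oral than by the intravenous route (5.15, SE 1.38, adjusted p = 0.00553), with 9.47% of genera called. For vancomycin, oral minus intraperitoneal came to 3.84 (SE 1.45, adjusted p = 0.0599). In the levels at day 4 no other lactic acid genus was called among the 15 route contrasts, over which 3.37% of all tests were called. The vancomycin contrast was lost with a pseudocount of 0.001 (3.90, adjusted p = 0.313). Counted as change within a mouse, a choice made after seeing the data, Lactobacillus differed between routes too, with vancomycin oral minus intraperitoneal at -5.21 (SE 1.80, limma adjusted p = 0.0252, 26.3% of genera called). In the levels at day 4 the same contrast was -0.06 (SE 0.831, limma adjusted p = 0.99). The day 0 libraries of intraperitoneal vancomycin had 0 Lactobacillus reads, at depths of 6206, 357, 2, 15068, 230 and 270 reads. A fall could thus not be seen there. Lactobacillus was even in 4 of 5 of these mice and fell in 4 of 5 intraperitoneal PBS mice.

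Lactobacillus, the genus of L. intestinalis and other host-adapted lactobacilli, did not follow Ligilactobacillus. It had a read in 49 of 107 libraries at day 0 and in 32 of 91 at day 4, where it stayed at or below 0.224%. Its reads were split between a genus-level row and Lactobacillus intestinalis, which was found in 36 day 0 and 20 day 4 libraries.

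No read of Lactobacillus was found in any of the 6 oral vancomycin mice at day 4, the same mice in which Ligilactobacillus rose. The oral PBS mice were low too, at 0.0532% in 1 mouse and 0% in 4, so the groups overlap and the difference did not pass (-0.53, SE 0.575, limma adjusted p = 0.386). On the centred log-ratio scale this difference turns to 1.67 (limma adjusted p = 0.0147, with 47.4% of genera called), in a comparison whose median genus lay at -1.96. Ligilactobacillus made up 99.6% of the mean Lactobacillaceae share with oral vancomycin and 78.5% with oral PBS.

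Lactobacillus was also without a read in every sample of intravenous vancomycin, intravenous and intraperitoneal ampicillin, intravenous and intraperitoneal mix, and oral neomycin. Intraperitoneal ampicillin held only 2 samples. The zeros of the intravenous and intraperitoneal mix include libraries of 65 and 30 reads, where 3 reads would be 4.62% and 10%. Intravenous PBS mice had 0.0140%, 0%, 0.0195%, 0.0331%, 0.0416% and 0%, so the 3 intravenous groups at 0 overlap with their controls. The differences were -1.22 in all 3, with limma adjusted p = 0.0588 for the mix, 0.0614 for vancomycin and 0.0962 for ampicillin. It was found in 4 of 4 intravenous neomycin mice, at 0.0628%, 0.0866%, 0.0534% and 0.0333%, of which 3 lay above every PBS mouse (difference 1.51, SE 0.613, adjusted p = 0.297). With intraperitoneal metronidazole 5 of 6 mice had a read, up to 0.224% (1.45, SE 0.575, adjusted p = 0.145). Over the 15 comparisons limma called Lactobacillus 0 times, with 5 unadjusted p-values under 0.05, and the exact permutation test after adjustment also called it 0 times. Other settings called it. A pseudocount of 0.001 gave -3.13 in all 3 intravenous comparisons (adjusted p = 0.0437 for ampicillin, 0.0231 for vancomycin and 0.0249 for the mix), where 48.4%, 49.5% and 50.5% of genera were called. With only the groups compared in the fit, intravenous vancomycin (adjusted p = 0.0314) and the mix (0.0325) passed, where 42.1% and 36.8% of genera were called. On the centred log-ratio scale Lactobacillus was called higher with oral vancomycin, as given above, and with oral ampicillin. The latter was 1.72 (SE 0.615, limma adjusted p = 0.0277, with 29.5% of genera called), against -0.13 in the main fit.

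Limosilactobacillus, the genus of the rodent and human gut colonist L. reuteri, was found in 24 of 107 day 0 and 21 of 91 day 4 libraries, at up to 0.420% and 0.185%. With oral vancomycin 3 of 6 mice had it, at 0.0557%, 0.0534% and 0.00978%, against 1 of 5 oral PBS mice at 0.00775%. That difference was 0.90 (SE 0.554, limma adjusted p = 0.149). Intraperitoneal vancomycin held it in 2 of 5 samples, up to 0.185% (0.65, SE 0.579, adjusted p = 0.438). Limma differences for this genus lay between -0.38 and 0.93 over the 15 comparisons, and 0 passed, with 0 unadjusted p-values under 0.05 and 0 calls in the exact permutation test. On the centred log-ratio scale Limosilactobacillus was called higher 3 times: with oral vancomycin (3.10, adjusted p = 1.58e-05), intraperitoneal ampicillin (2.79, adjusted p = 0.00827, 20% of genera called) and oral ampicillin (1.68, adjusted p = 0.0359, 29.5%).

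**Figure D2:**
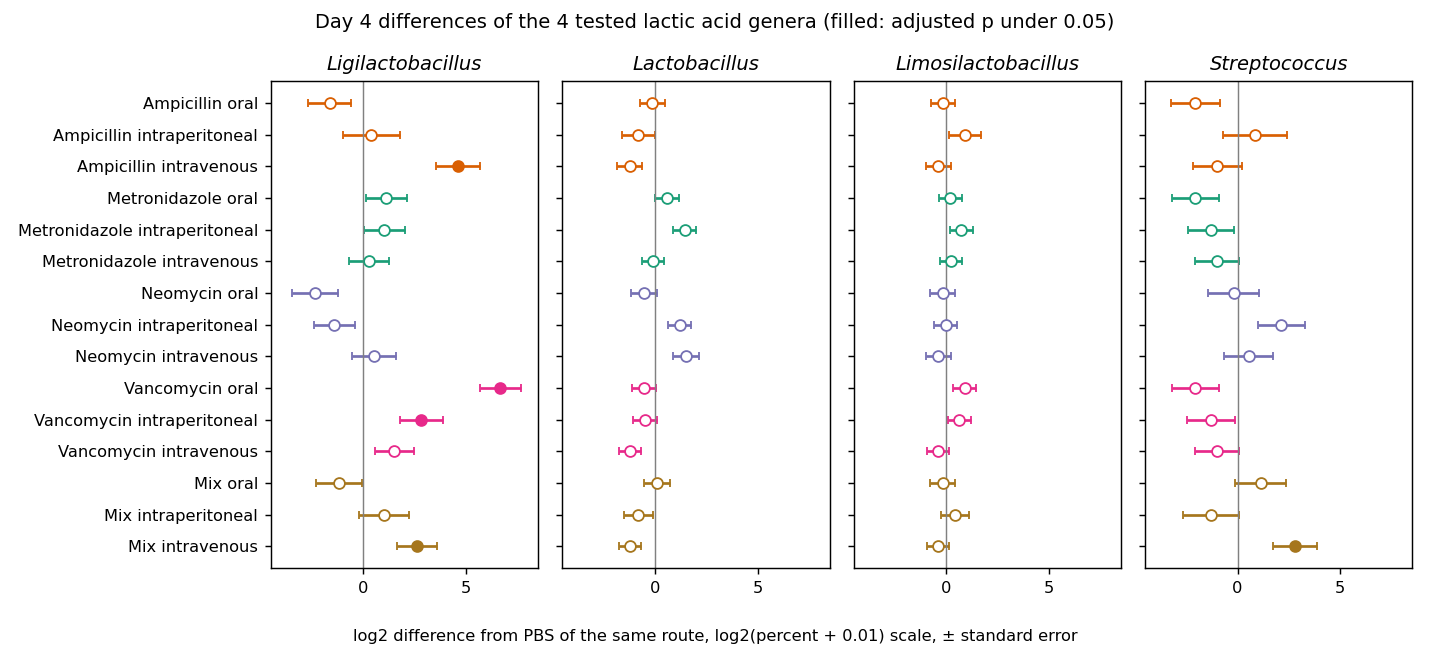
Log2 differences from PBS of the same route at day 4 for the 4 tested genera, with standard errors; filled points have a limma adjusted p under 0.05. Filled points are 4 of Ligilactobacillus and 1 of Streptococcus, and none lies below 0.

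In total 5 of the 60 tests of lactic acid genera at day 4 were called, against 28.3% of the 1425 tests over all genera. The 5 were all higher than PBS, and 11 had an unadjusted p under 0.05. The 4 calls of Ligilactobacillus were those with oral vancomycin, intraperitoneal vancomycin, intravenous ampicillin and the intravenous mix. Without the libraries under 1000 reads all 4 kept their direction and stayed called: 6.65 (adjusted p = 2.54e-08, with 67% of genera called), 2.81 (0.0304, 28.9%), 4.59 (0.000216, 43.3%) and 3.13 (0.00637, 43.3%) in that order. The medians over the 4 lactic acid genera were 0.18, 0.09, -0.68 and 1.11 in these comparisons, and those over all 95 genera were -1.96, -1.01, -1.65 and -1.46.

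Streptococcus, a genus of cocci common in mouths and dairy food, was found in 0 of 107 day 0 libraries and in 29 of 91 day 4 libraries. All 29 belonged to run ok122, and the 12 libraries of run SB1 had none. In run ok122 it was found in 10 of 13 PBS, 11 of 14 neomycin and 7 of 10 mix libraries. It was found in 1 of 9 ampicillin, 0 of 18 metronidazole and 0 of 15 vancomycin libraries. Depth overlapped between these sets: PBS libraries of this run held 16555 to 64482 reads, metronidazole libraries 1426 to 49966 and vancomycin libraries 1151 to 40311.

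**Figure D3:**
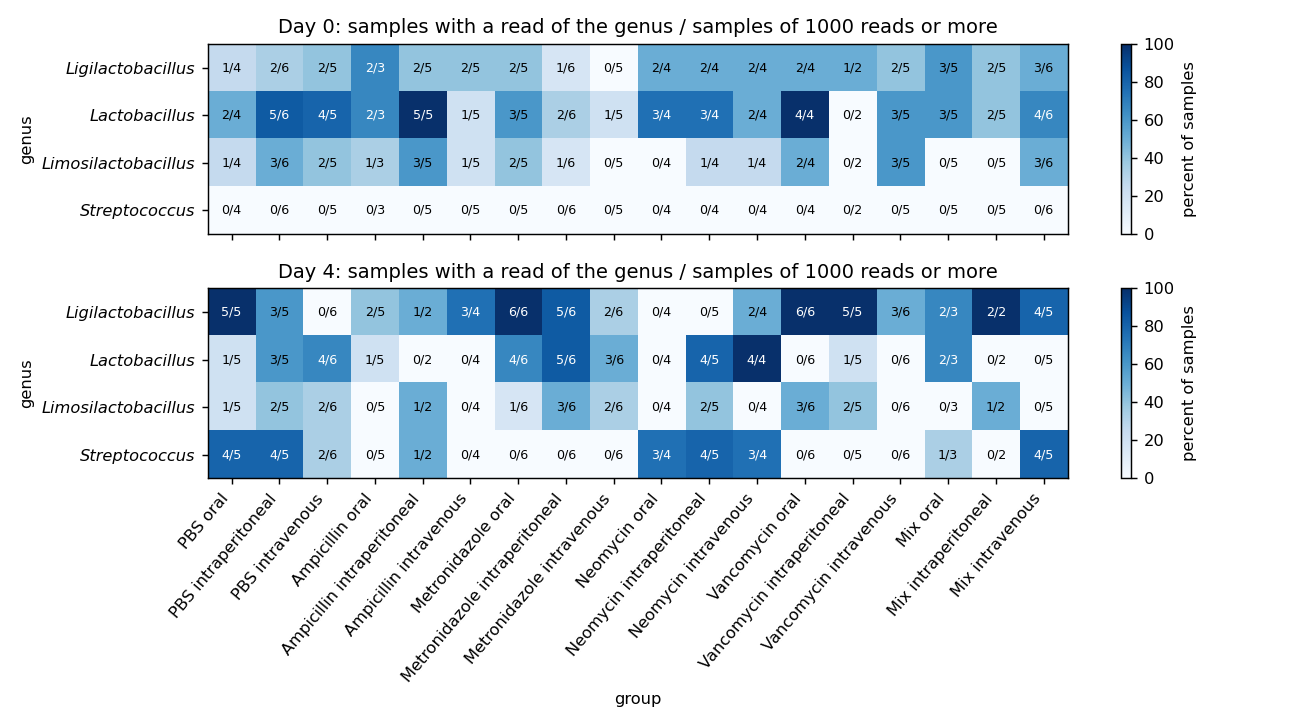
Samples of 1000 reads or more with a read of each genus, over all such samples, by group at day 0 and day 4, with the share as colour. Streptococcus is at 0 in every day 0 group and in the metronidazole and vancomycin groups at day 4, and Ligilactobacillus is in all oral PBS, metronidazole and vancomycin samples at day 4.

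In the intravenous mix, Streptococcus was at 0.154%, 0.158%, 0%, 0.00809%, 44.6% and 0.0179%. The 44.6% is 29 reads of a library of 65. Intravenous PBS mice had 0.0475%, 0.0955% and 0% in 4 mice. The limma difference was 2.77 (SE 1.07, adjusted p = 0.0275), and without libraries under 1000 reads it was 1.10 (adjusted p = 0.138), so the call rests on that library. The highest shares otherwise were 22.9% in an intraperitoneal neomycin library of 70 reads (16 reads) and 4.86% in an oral mix library of 556 reads (27 reads). The highest share in a library of 1000 reads or more was 0.181%.

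The number of Streptococcus reads per library lay between 3 and 88 with a median of 17 in the 29 libraries that had it, while the depth of these libraries ran from 65 to 123669 reads, a ratio of 1903. In 28 of the 29 libraries it was at most 33 reads. Across these 29 libraries the Spearman correlation of Streptococcus reads with library reads was -0.07, and 0.08 over the 26 of 1000 reads or more. For Ligilactobacillus this correlation was 0 over the 53 libraries that had it, with 2 to 1853 reads and a median of 16. The lack of correlation with depth is thus not particular to Streptococcus. In run ok122 alone the Streptococcus difference was 1.79 with the intravenous mix (limma adjusted p = 0.232) and 4.30 with the oral mix (adjusted p = 0.0215, 34.4% of genera called). The oral mix group then holds 2 libraries, the one of 556 reads among them. Reagent genera made up 93.4% and 68.3% of the reads of these libraries. With run as a term the intravenous mix gave 1.88 (adjusted p = 0.143). With libraries thinned to 1000 reads and shallower ones left out, Streptococcus no longer passed the filter and was not among the genera tested.

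The oral PBS mice had 0%, 0.143%, 0.0448%, 0.0295% and 0.0260% of Streptococcus, and the oral vancomycin mice 0% in all 6. The limma difference was -2.04 (SE 1.13, adjusted p = 0.104), and the exact permutation test gave p = 0.0152 (adjusted p = 0.0248). Without libraries under 1000 reads it was called lower with oral ampicillin (adjusted p = 0.00687, 55.7% of genera called), oral metronidazole (0.0314, 5.15%) and oral vancomycin (0.00365), each at -2.04. The same samples enter these groups in both fits, and the SE with oral vancomycin was 0.626 without the libraries under 1000 reads. Gemella, another genus of cocci, chosen after its values were seen, was in 14 day 4 and 0 day 0 libraries, and 13 of the 14 also held Streptococcus.

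**Figure D4:**
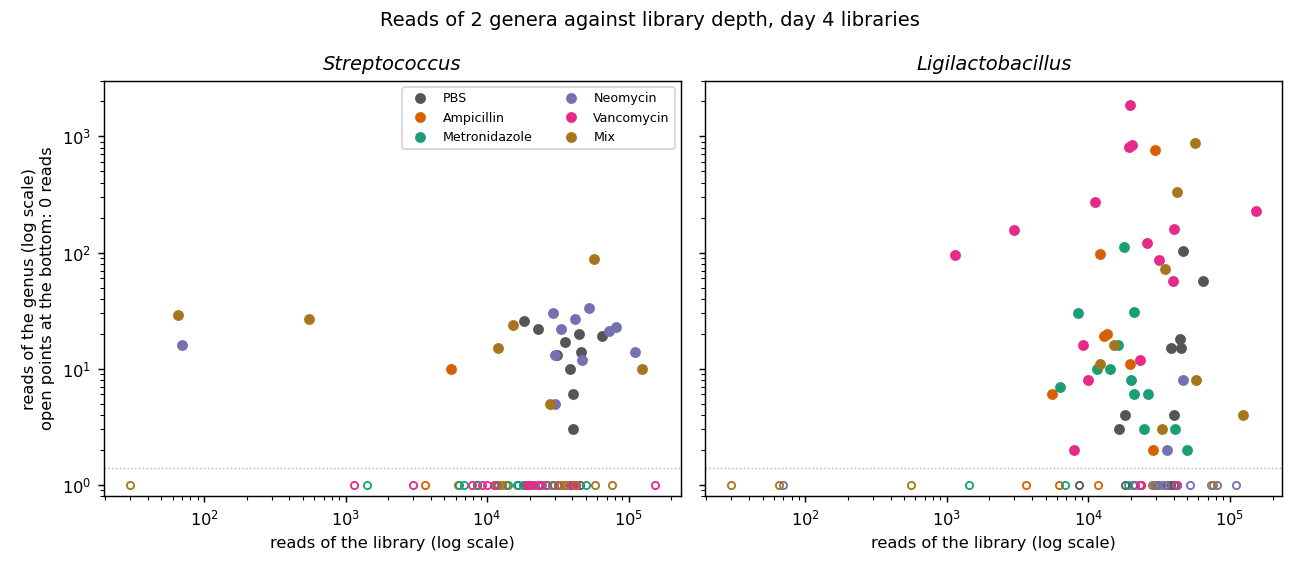
Reads of Streptococcus (left) and Ligilactobacillus (right) against the reads of the library, both on log axes, for the 91 day 4 libraries; open points at the bottom had 0 reads. Where it had a read, Streptococcus lay between 3 and 88 reads (median 17) and Ligilactobacillus between 2 and 1853 (median 16). Neither followed library depth (Spearman correlation -0.07 and 0).

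The remaining 3 entries were too rare to pass the filter and were not tested in the main fit. Unclassified Enterococcaceae, a family of gut cocci, had a read in 0 of 107 day 0 and 10 of 91 day 4 libraries (11.2% of samples), spread over 9 groups. Its highest levels were 1.09% in intravenous mix replicate 1 (624 reads), 0.470% in intraperitoneal ampicillin replicate 1 and 0.239% in intravenous neomycin replicate 4. The first of these is also the library with the highest Ligilactobacillus share of its group. Lactococcus_A_346120, a genus best known from milk, had 2 reads in each of 2 libraries of run SB1, an oral mix and an intravenous vancomycin sample. A fit with no filter called both entries higher. Unclassified Enterococcaceae was called with intraperitoneal ampicillin (2.46, SE 0.904, limma adjusted p = 0.0437), a group of 2 samples. Lactococcus_A_346120 was called with the oral mix (0.108, SE 0.0365, limma adjusted p = 0.0311), where the call rests on 2 reads of 1 library. The Streptococcaceae unclassified at genus level had no read in any library.

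Before dosing, no lactic acid genus was called. At day 0, 3 of the 7 entries passed the filter among 85 genera, and limma called 0 of 45 tests, with 5 unadjusted p-values under 0.05. Over all genera 0.0784% of tests were called. Of the 83 day 0 libraries with 1000 reads or more, 33 held Ligilactobacillus, 49 Lactobacillus and 24 Limosilactobacillus. Of the 24 with Limosilactobacillus, 21 also held Lactobacillus, and 15 held all 3 genera. At day 4, 12 of the 21 libraries with Limosilactobacillus held Lactobacillus and 16 held Ligilactobacillus. The highest Ligilactobacillus share at day 0, 1.30%, is 3 reads of a library of 230.

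Within mice sampled on both days, matched by the mouse part of the sample names, Ligilactobacillus was higher at day 4 than at day 0 in 6 of 6 oral vancomycin mice. In 4 of them it went from 0% to 2.40%, 4.10%, 8.34% and 4.20%, in the others from 0.0257% to 9.39% and from 0.0589% to 5.25%. It was also higher in the 5 oral PBS mice with both days, going from 0% to 0.0220% to 0.0884%. Their day 0 libraries held 457, 1077, 38648, 318 and 3469 reads, where 3 reads would be 0.656%, 0.279%, 0.00776%, 0.943% and 0.0865%. Except in the library of 38648 reads, this limit lies above the day 4 level of the mouse. Those rises can thus not be told from reads missed at day 0. The mean change was 8.22 ± 1.15 (SD, n = 6) with vancomycin and 2.34 ± 0.59 (SD, n = 5) with PBS on the log2 scale. Counted as change within a mouse, the difference from PBS was 5.88 (SE 1.11, limma adjusted p = 1.1e-05, with 49.5% of genera called).

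Lactobacillus went the other way in the oral vancomycin mice: 0.163%, 0.0437%, 0.0549% and 3.65% at day 0 became 0%, and 2 mice had none on either day. Counted as change within a mouse, the difference from PBS was -3.22 (SE 1.25, limma adjusted p = 0.0266), unlike the day 4 levels alone. The groups already differed at day 0, with mean Lactobacillus of 0.651% in oral vancomycin and 0.00834% in oral PBS libraries. Of the 6 vancomycin libraries, 4 lay above every PBS library. That gap was 2.37 on the log2 scale and was not called, against -0.53 at day 4. Much of the -3.22 is thus the gap at day 0. An oral PBS library of day 0 held as few as 318 reads, so low levels could be missed there. The mouse with 3.65% at day 0 also went from 0.420% to 0% of Limosilactobacillus, while its Ligilactobacillus went from 0.0589% to 5.25%. As change within a mouse, Ligilactobacillus was higher relative to PBS with intravenous ampicillin (4.99, SE 1.18, limma adjusted p = 0.00241, 23.2% of genera called). It was lower relative to PBS with oral ampicillin (-2.78, SE 1.16, limma adjusted p = 0.0443, 44.2%). The oral ampicillin mice themselves changed by -0.44 ± 0.61 (SD, n = 5), with 2 falling, 3 even and 0 rising. Most of the oral difference thus comes from the 2.34 of the oral PBS mice. At the day 0 depths given above, most of those rises cannot be told from missed reads. Day 0 libraries of oral ampicillin held as few as 242 reads, so low levels could be missed there too.

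**Figure D5:**
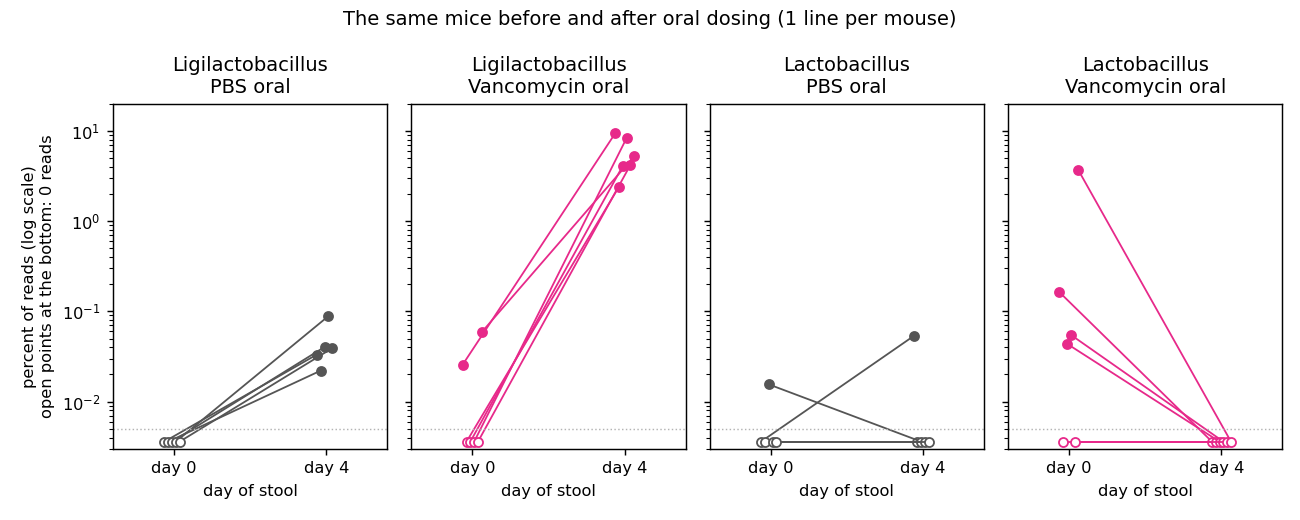
Percent of reads on a log axis at day 0 and day 4 for mice of the oral PBS and oral vancomycin groups, 1 line per mouse, for Ligilactobacillus and Lactobacillus; open points at the bottom had 0 reads. All 6 vancomycin mice end between 2.40% and 9.39% of Ligilactobacillus and at 0% of Lactobacillus.

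Summed over the 7 entries and without libraries under 1000 reads, lactic acid bacteria had day 4 group means from 0.0244% with oral ampicillin to 5.64% with oral vancomycin, and 0.111%, 0.0906% and 0.0459% in oral, intraperitoneal and intravenous PBS. With all libraries the mean of the intravenous mix was 7.99% in place of 0.659% that of intraperitoneal neomycin 3.91% in place of 0.115%, and that of the oral mix 1.28% in place of 0.0873%, through the libraries of 65, 70 and 556 reads.

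Relatives of these families were read from the same fit. The other Lactobacillales were 4 genera, none tested. The other Bacilli were 41 genera, of which 3 were tested: Pelethenecus was called higher in 2 comparisons (oral ampicillin 4.18, SE 1.07, adjusted p = 0.000891; intraperitoneal ampicillin 4.34, SE 1.41, adjusted p = 0.0130), UBA6985 lower in 7 and unclassified UBA660 lower in 2. Of the 7 reagent, skin and food genera 1 was tested, Burkholderia, a genus of soil bacteria, and it was called higher in 3 comparisons: oral ampicillin, intraperitoneal ampicillin and the oral mix.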

How the data were processed

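The table used is the composition table that the authors deposited, a signal scaled to 100000 per fecal sample, per the deposited values. Empty cells (11.6%) were read as 0. Read filters, taxonomy and the extraction kit per library: not given in the sources used here. GEO holds 4 records, the read files of 2 runs, so antibiotic, route, day and replicate came from the deposited sample sheets, and 2 oral mix samples share a number. Library depth was recovered because nonzero values are whole multiples of the worth of a read (tolerance 0.02 reads, or 1e-05 of the value). Depth ran from 30 to 153407 reads at day 4, and a table without counts was fitted with no count model. Depth is a lower limit, as the lowest nonzero value was 2 reads in 183 of 198 libraries. Day 4 sample names differ in their mouse part, including those of the 2 oral mix samples, and nothing else states separate animals. Within groups, 2 pairs of libraries differed by less than sampling noise in a chi-square test of reads and were each averaged as 1 sample.

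Rows were summed by genus and divided into percent. Groups were compared in limma 3.58.1 (R 4.3.3; lmFit, contrasts.fit, eBayes with a variance trend), 1 mean per group over all day 4 samples, 95 genera, threshold 0.05, tested on simulated data. Route contrasts subtract 2 differences from PBS. Exact permutation tests were two-sided, and 87 pairs were used within mice, matched by sample name since replicate numbers differ between days, without a mouse whose route differs between days. Alternatives changed the pseudocount, filter, library set, run term, scale, features, baseline and spread. Every lactic acid genus is described, with values by sample for tested ones, and the 5 genera most like Ligilactobacillus are named. The lists were other Lactobacillales, other Bacilli, and reagent, skin and food genera. Members and lists were chosen with earlier results of these data known.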

Additional observations from a re-analysis of the deposited data

Results flagged for a closer look

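Day 4 samples of a group were compared on the log2(percent + 0.01) scale for the highest or lowest sample standing far from the rest, in 41 groups of the 4 tested genera, and 8 groups had such a sample. Chance alone marks about 1 in 20 groups, and a lone nonzero value among zeros is always marked. The marked samples with Ligilactobacillus and Streptococcus were 0.0563% Ligilactobacillus in an oral ampicillin mouse, 22.9% Streptococcus in the intraperitoneal neomycin library of 70 reads and 44.6% Streptococcus in the intravenous mix library of 65 reads. Lactobacillus had a lone value of 0.0532% with oral PBS, of 0.0307% with oral ampicillin and of 0.0218% with intraperitoneal vancomycin. Limosilactobacillus had a lone value of 0.00775% with oral PBS and of 0.0340% with oral metronidazole.

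The difference from PBS of Ligilactobacillus differed between the oral and the intravenous route by a limma interaction test for 2 antibiotics. It was -6.23 for ampicillin (adjusted p = 0.00683) and 5.15 for vancomycin (adjusted p = 0.00553).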

How the results depend on the processing

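The count of calls at day 4 (5, all higher) was 11 with a pseudocount of 0.001 (6 of them lower), 2 with 0.1, 2 after thinning to 1000 reads, 3 with run as a term, 8 with only the groups compared in the fit (2 higher, 6 lower), 11 on the centred log-ratio scale, 3 with families as features and 3 in the exact permutation test (1 higher, 2 lower). It held 3 higher and 2 lower calls with change counted within a mouse, and 4 higher and 3 lower without libraries under 1000 reads. The share of all genera called also moved with the setting. For oral vancomycin it was 66.3% in the main fit, 47.4% on the centred log-ratio scale and 49.5% within mice. For intravenous ampicillin it was 42.1% in the main fit and 48.4% with a pseudocount of 0.001. These counts alone therefore say nothing particular to the lactic acid genera. Leaving out 1 replicate at a time gave 4 to 8 calls, with 4 to 5 higher and 0 to 3 lower. The count was 8 without intravenous PBS replicate 6, and lower calls appeared without it, intravenous PBS replicate 2, or intraperitoneal metronidazole replicate 1 or 2. At day 0 the count of 0 became 1 with a pseudocount of 0.001, and a 50% filter left no member to test. Between routes the count of 2 was 2 to 3 under every alternative run, of which run ok122 alone and the mouse baseline were chosen after seeing the data.

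The oral vancomycin rise of Ligilactobacillus was called in all 17 alternatives with genera or rows of the table as features and all 89 replicate left-outs. Intravenous ampicillin was lost in the exact permutation test alone. Intraperitoneal vancomycin was lost in 7 alternatives and without any of PBS replicates 1, 3, 4 and 5 or vancomycin replicates 1 and 3 (2.46 to 2.83, limma adjusted p 0.0539 to 0.116). The intravenous mix was lost in 7 alternatives and without mix replicate 1 or 3, and Streptococcus with the mix in 7 and without mix replicate 5 (1.10) or PBS replicate 3, 4 or 5 (2.58). No called value reversed. Sheet replicate numbers share only a number: deviations of same-numbered samples had a mean correlation of 0.02, 173 of 652 pairs passed 0.1, and the replicate block gave 5 calls. Depth limits what the zeros show, and the cause of changes with the settings was not tested.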
